A study of Mus musculus with 8 samples.

Results

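The genes described here are Enpp2, which encodes autotaxin, with the receptors and phosphatases of its product lysophosphatidic acid (LPA): Lpar1, Lpar2, Lpar3, Lpar4, Lpar6, Plpp1, Plpp2 and Plpp3. They are 9 of the 31053 genes in the deposited matrices and were found by symbol. Enpp2 was chosen by its measured difference between the temperatures: among genes of at least 50 CPM (counts scaled to 1000000 per library) at 39°C it had the highest fold, 3.03 on the log2 scale, ahead of 2.42 for Ckmt1 and 2.36 for Tnfrsf23. Its values between temperatures are therefore given as a description with no test. The other 8 genes were taken as the family around it, and their differences were tested among all genes.

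The samples were 8 single-cell RNA-seq libraries of SN4741, a mouse neural precursor line, labelled wild type. There were 4 libraries from cultures at 37°C in 10% serum, the permissive temperature, and 4 from cultures shifted to 39°C in 0.5% serum for 48 h, the non-permissive temperature. Temperature and serum changed together and cannot be told apart. All cells carry a temperature-sensitive SV40 T antigen driven by a tyrosine hydroxylase promoter, and the line is described as clonal, so the libraries sample 1 line and not several animals. The study found an unstable, mostly triploid karyotype in undifferentiated cells, with a chromosome complement that differed from cell to cell. The part of these copy number differences in the values below was not tested. The labels do not say whether replicates were separate cultures, so the spread between these libraries may be technical. The p-values rest on that spread as estimated by pooling over many genes, and do not measure the spread of each gene alone.

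Autotaxin is a secreted lysophospholipase D that makes LPA from lysophosphatidylcholine outside the cell. LPA acts on G protein-coupled receptors (the Lpar genes), and lipid phosphate phosphatases (the Plpp genes) at the cell surface remove its phosphate and so end the signal. In the brain, autotaxin is known from the choroid plexus and from oligodendrocytes, and LPA receptors from neural precursors of the developing cortex.

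After the study's cell filters, 18351 of 19125 cells were kept, 985 to 3494 in a library, with 17166686 to 29633818 unique molecular identifiers (UMIs, captured transcript molecules) per library. The neural precursor label was checked against 7 markers: Vim, Nes, Hes1 and Sox2 were above 1 CPM, whereas Pax6, Fabp7 and Msi1 were below. Of the cell types known for autotaxin, the oligodendrocyte lineage markers Mog, Sox10, Olig1 and Olig2 had 0 UMIs in all libraries, and so did the choroid plexus markers Ttr and Otx2. The summed level of the 9 oligodendrocyte lineage genes was 39.7 to 42.1 CPM at 37°C and 42.7 to 46 CPM at 39°C, and that of the 6 choroid plexus genes, mostly Aqp1, was 18.3 to 24.1 and 9.26 to 10.2 CPM. The 6 fibroblast or meningeal genes, led by Col1a1 and Col1a2, summed to 1750 to 1820 CPM at 37°C and 823 to 856 CPM at 39°C, and the 6 neuronal genes to 165 to 193 and 79.3 to 97.7 CPM. The endothelial sum stayed at or below 1.17 CPM and the microglial sum at or below 2.68 CPM in every library.

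Enpp2 was higher in every 39°C library than in any 37°C library. In the 37°C libraries, replicates 1 to 4, its level in the summed kept cells was 9.53, 10.6, 7.78 and 7.41 CPM. In the 39°C libraries it was 75.7, 68.4, 75.6 and 67.8 CPM. The means were 8.82 ± 1.49 and 71.9 ± 4.38 CPM (SD, n = 4 each), and the fitted log2 fold change was 3.03 with an SE of 0.08, the 29th highest of the 15810 genes tested. The gene lies on the minus strand of chromosome 15, 54838901 to 54952892 (GRCm38), and no other gene of the files overlaps it. In bulk sums, more cells with the transcript and more transcript per cell cannot be told apart, so the cells were examined next.

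**Figure D1:**
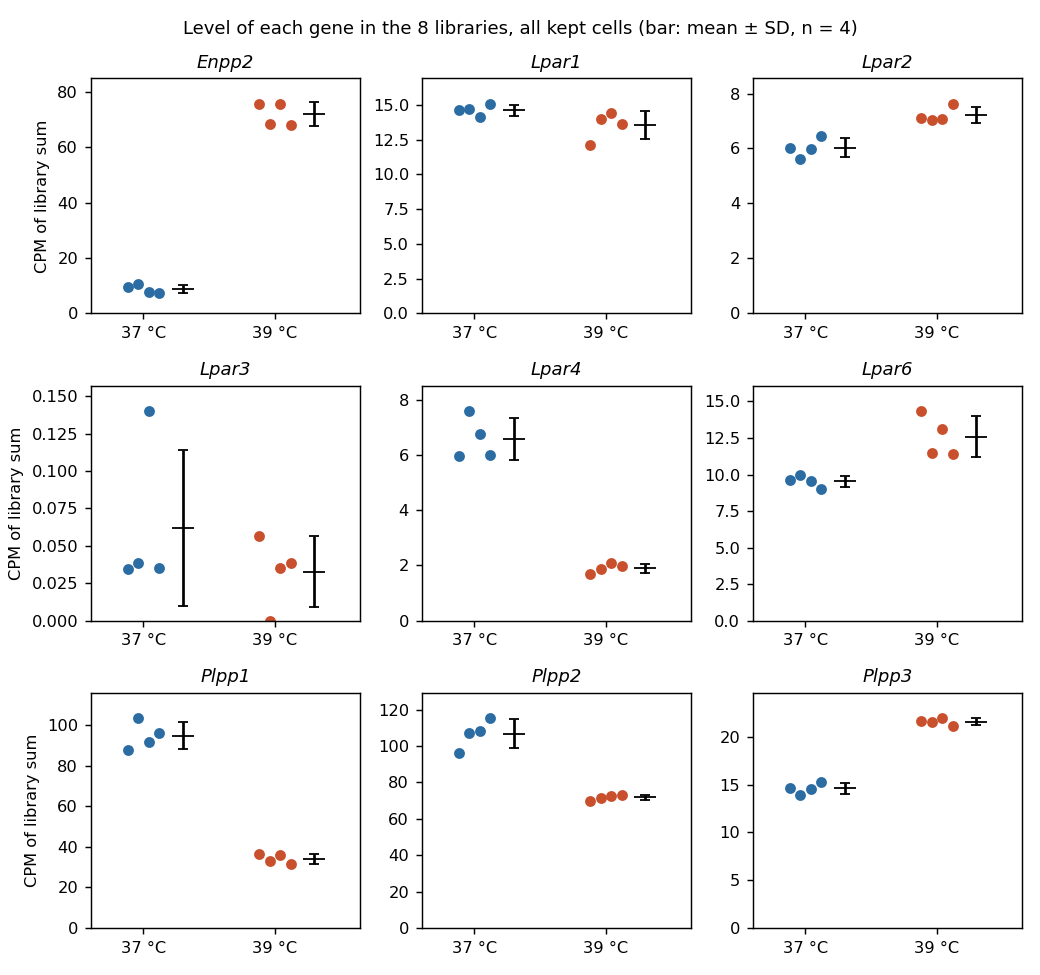
Level of each of the 9 genes in the summed kept cells of the 8 libraries, in CPM, with an axis of its own for each gene; points are libraries and bars are the mean ± SD of 4. Enpp2, Lpar2, Lpar6 and Plpp3 were higher and Lpar4, Plpp1 and Plpp2 lower in all 39°C libraries, Lpar1 overlapped, and Lpar3 had 10 UMIs in all.

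Most cells had no Enpp2 UMI at either temperature. Each kept cell was thinned at random to 5000 UMIs so that depth would not set detection, which left out 668 shallower cells at 37°C and 1668 at 39°C. The share of cells with at least 1 Enpp2 UMI was then 4.03%, 4.32%, 3.82% and 3.09% in the 37°C libraries and 20.3%, 17.7%, 20.6% and 16.0% in the 39°C libraries. The means were 3.81% ± 0.526 and 18.7% ± 2.21 (SD, n = 4), and the groups did not overlap. The exact 95% binomial intervals, which cover counting error only, ran from 2.43% to 3.86% for the lowest 37°C library and from 14.6% to 17.5% for the lowest 39°C library. Without thinning the means were 6.16% and 26.1%. With 1 cell line there is no cell type that should lack Enpp2, so the share that free RNA in the droplets could give was not measured.

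The Enpp2 UMIs were concentrated in few cells. If they had been spread evenly over equally deep cells, 28.3% to 36.6% of 39°C cells would hold at least 1, against the 16.0% to 20.6% observed. The variance of its UMIs per cell was 3.30 to 3.63 times the mean at 39°C, against 1.06 to 1.14 for Lpar1, 1.11 to 1.26 for Plpp1, 1.01 to 1.06 for Plpp2 and 1.24 to 1.70 for Plpp3. The spread of Enpp2 was uneven at 37°C too, with a variance of 1.86 to 3.31 times the mean. There 3.09% to 4.32% of cells held a UMI, against 4.24% to 7.52% if spread evenly. Cells with 3 or more UMIs made up 3.78% to 5.62% of the 39°C libraries and 0.334% to 0.563% of the 37°C libraries, and the highest count in a thinned cell was 19 at 39°C and 12 at 37°C.

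**Figure D2:**
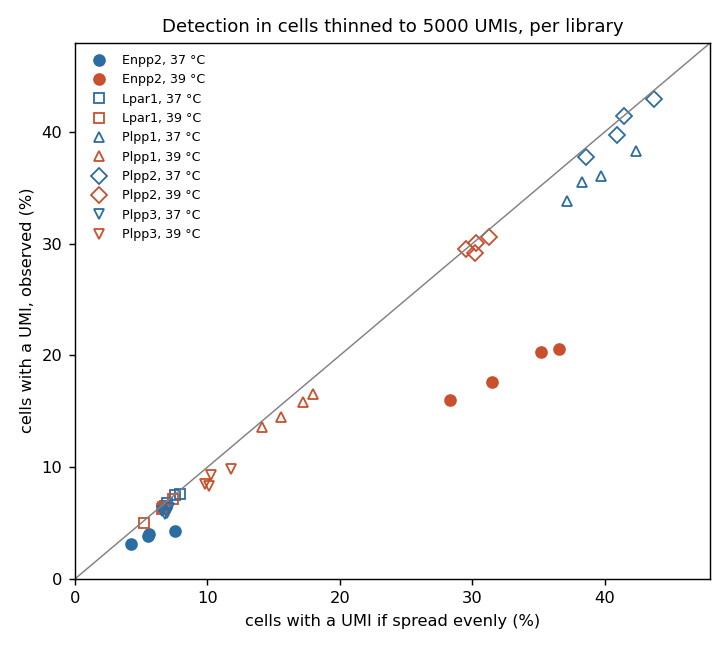
Share of cells with at least 1 UMI (%) against the share expected if a gene's UMIs were spread evenly over cells (%), in cells thinned to 5000 UMIs, 1 point per library. The Enpp2 points at 39°C sit at 16.0% to 20.6% against 28.3% to 36.6%, below the line of equality, whereas Lpar1 and Plpp2 lie close to it.

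The cells with Enpp2 UMIs were mostly those assigned to G1. Phases were assigned from the expression of S and G2M genes, lists that hold none of the 9 genes, and 2161 of the 18351 cells lay within 0.05 of the score limit (11.7% of cells at 37°C and 11.9% at 39°C). The share of cells in G1 was 20.6% to 28.7% in the 37°C libraries and 82.5% to 85.4% in the 39°C libraries, and in cells thinned to 5000 UMIs before scoring it was 20.9% to 28.3% and 83.7% to 85.4%. At 37°C, G1 cells gave 18.7% to 25.1% of all UMIs but 55.4% to 73.3% of the Enpp2 UMIs. At 39°C they gave 83.4% to 86.3% of all UMIs and 93.1% to 95.2% of the Enpp2 UMIs. In thinned cells, Enpp2 was detected in 10.3% ± 1.90 of G1, 2.70% ± 0.575 of S and 0.930% ± 0.699 of G2M cells at 37°C, and in 20.7% ± 2.02, 9.42% ± 3.62 and 2.82% ± 0.972 at 39°C (SD, n = 4).

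G1 cells were compared with S and G2M cells of the same libraries, which asks whether Enpp2 differed by phase without crossing the temperatures. In the 37°C libraries the Enpp2 level was 21.03, 37.2, 25.5 and 24.5 CPM in G1 cells and 5.79, 3.62, 3.31 and 3.38 CPM in S and G2M cells. G1 was higher in 4 of 4 libraries, by 2.71 on the log2 scale (SE 0.10, edgeR adjusted p = 6.39e-164). In the 39°C libraries it was 85.3, 76.2, 83.8 and 78.5 CPM in G1 cells and 25.7, 28.1, 34.6 and 20.5 CPM in S and G2M cells. G1 was again higher in 4 of 4 libraries, by 1.56 (SE 0.07, edgeR adjusted p = 3.35e-116). Over the alternatives the adjusted p reached at most 1.15e-16 at 37°C and 1.28e-21 at 39°C, past the threshold of 0.05 in each. The fits pool their dispersion over many genes, so these p-values do not measure the spread of Enpp2 between the 4 libraries. Without single libraries the difference ran from 2.48 to 3.07 at 37°C and from 1.435 to 1.691 at 39°C, moves larger than the SE. Scoring each library by itself, which puts fewer 39°C cells in G1 (54.1% to 58.8%), lowered the 39°C difference to 0.58.

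The phase difference of Enpp2 was smaller at 39°C than at 37°C, by -1.14 on the log2 scale (SE 0.13), where the median over all genes tested was 0.06. This value crosses the temperatures and is given with no test. It ranged from -2.18, with phases scored by library, to -0.92 over 14 alternatives, and was -1.49 without 37°C replicate 1.

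**Figure D3:**
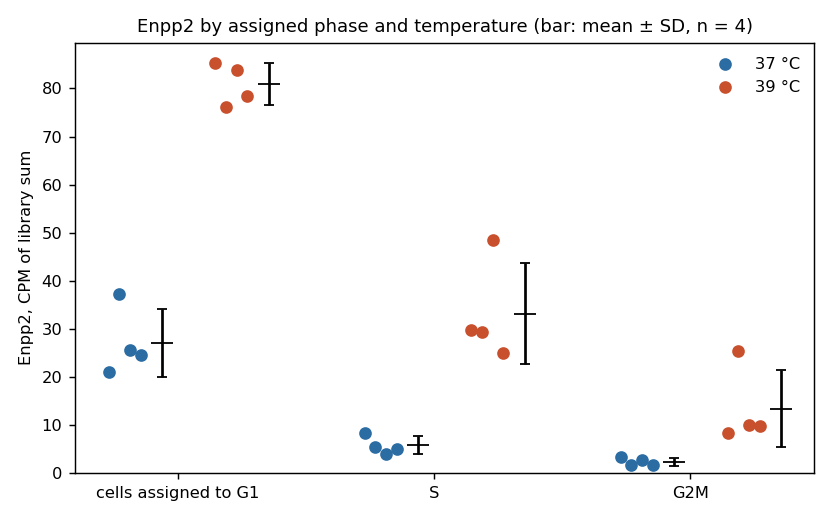
Enpp2 level (CPM of the library sum) in cells assigned to G1, S and G2M at both temperatures; points are libraries and bars are the mean ± SD of 4. G1 cells at 39°C sit at 76.2 to 85.3 CPM, and G1 cells at 37°C, at 21.03 to 37.2 CPM, overlap S cells at 39°C, at 24.9 to 48.5 CPM.

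The temperature difference of Enpp2 was present within each phase and was smaller in G1. In G1 cells the means were 27.1 ± 7.02 CPM at 37°C and 81.0 ± 4.32 CPM at 39°C, a log2 fold change of 1.60 (SE 0.10). In S and G2M cells they were 4.03 ± 1.18 and 27.2 ± 5.85 CPM, a log2 fold change of 2.76 (SE 0.16), and 39°C libraries were above all 37°C libraries in both classes. With phases scored by library these were 2.12 and 4.29, and with phases scored on thinned cells 1.49 and 2.65. When the phases were weighted as at 37°C in every library, with plain totals, the Enpp2 mean was 8.82 ± 1.25 CPM at 37°C and 36.0 ± 4.67 CPM at 39°C, a ratio of 4.08 against 8.33 without weights. This weighting was chosen after seeing the data. The 39°C replicate 1 library held only 115 S and 29 G2M cells, and leaving out each library in turn gave 1.48 to 1.78 in G1 and 2.60 to 2.97 in S and G2M cells.

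Of the 8 other genes, 6 passed an adjusted p under 0.05 between temperatures in all kept cells, against a background of 62.0% of all genes tested. Lpar2, Lpar6 and Plpp3 were higher at 39°C (31.5% of genes were) and Lpar4, Plpp1 and Plpp2 were lower (30.5%). At the study's stricter limits (a log2 fold change beyond 1.5 either way, with adjusted p below 0.01) only Lpar4 passed, against 5.83% of genes, and Plpp1 fell just short at -1.48. In G1 cells 5 of 7 tested passed (47.1% of genes) and in S and G2M cells 5 of 7 (44.3%), with Lpar4 again the only one past the stricter limits (2.54% and 2.31% of genes). With so few genes these counts are not read as a result about the set, and the genes are described one by one below. Counts are 3' UMIs and are not scaled by transcript length, so levels are compared between samples and not between genes.

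Lpar1 encodes the LPA receptor best known from cortical precursors. Its level was 14.6, 14.7, 14.1 and 15.1 CPM at 37°C and 12.1, 14.0, 14.4 and 13.6 CPM at 39°C, so the groups overlapped. The log2 fold change was -0.10 (SE 0.06, edgeR adjusted p = 0.168). Within G1 cells Lpar1 was lower at 39°C, by -0.29 (SE 0.09, edgeR adjusted p = 0.00901), with 15.4 to 18.6 CPM at 37°C and 12.7 to 14.7 CPM at 39°C, but not with phases scored by library (adjusted p = 0.103). In S and G2M cells the fold was -0.17 (adjusted p = 0.25).

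Lpar2 and Lpar6 had small differences in the same direction. Lpar2, a receptor that also couples to G12/13 and Gi proteins, was at 6.03, 5.62, 5.99 and 6.46 CPM at 37°C and 7.09, 7.04, 7.08 and 7.63 CPM at 39°C. It was higher in every 39°C library, by 0.26 (SE 0.08, edgeR adjusted p = 0.00832), but in thinned cells the fold was 0.18 and did not pass (adjusted p = 0.252). Within G1 cells the fold was 0.24 (adjusted p = 0.178), which passed when 37°C replicate 4 was left out (0.39, adjusted p = 0.037), and in S and G2M cells it was 0.27 (adjusted p = 0.159), which passed with phases scored by library (0.31, adjusted p = 0.0181).

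Lpar6, one of the receptors of the purinergic receptor family, was at 9.60, 9.96, 9.57 and 9.02 CPM at 37°C and 14.4, 11.5, 13.1 and 11.4 CPM at 39°C. The groups did not overlap, and the fold was 0.39 (SE 0.08, edgeR adjusted p = 0.000202). It also passed in G1 cells (0.41, adjusted p = 0.00555) and in S and G2M cells (0.52, adjusted p = 0.00225). Lpar6 (chromosome 14, 73237895 to 73243294, GRCm38, plus strand) overlaps Rb1 on the other strand, with 408 exonic bases in common, and how strand was used in counting is not given in the sources used here.

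Lpar3 and Lpar5 were at the limit of detection. Lpar3 had 7 UMIs in the 37°C libraries (1, 1, 4 and 1) and 3 in the 39°C libraries (1, 0, 1 and 1), or 0.0618 CPM (95% exact Poisson interval 0.0249 to 0.127) and 0.0308 CPM (0.00636 to 0.0901). The intervals cover counting error only and overlap, so a difference was not detectable at this depth (edgeR adjusted p = 0.379), and Lpar3 was tested in no other comparison. Lpar5, the remaining receptor of the family, had 0 UMIs in all libraries, which allows up to 0.0265 CPM at 37°C and 0.0308 CPM at 39°C (3 counts).

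Lpar4, another receptor of the purinergic receptor family, had the largest tested difference of the 8 genes. Its level was 5.96, 7.596, 6.77 and 6.003 CPM at 37°C and 1.70, 1.85, 2.09 and 1.97 CPM at 39°C. Every 39°C library was below every 37°C library, and the fold was -1.77 (SE 0.12, edgeR adjusted p = 1.23e-10). It was -1.78 in G1 cells (SE 0.18, adjusted p = 3.38e-08) and -1.97 in S and G2M cells (SE 0.24, adjusted p = 9.58e-08), although the last rests on 25 UMIs at 39°C. Across all alternatives of the 3 comparisons the fold lay between -2.21 and -1.60 and passed in each. In thinned cells Lpar4 was detected in 2.92% ± 0.267 of cells at 37°C and 0.909% ± 0.196 at 39°C (SD, n = 4).

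The Lpar4 promoter is printed because this gene had the largest tested fall. The 250 bases before the RefSeq start site (GRCm38.p6, chrX:106920375-106920624, plus strand, 5′ to 3′, no exon of the gene) are given with matches to CCAAT, a motif that the factor NF-Y is known to bind, and to TATAAA in capitals, on either strand, so that a match on the other strand reads ATTGG or TTTATA.

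Lpar4: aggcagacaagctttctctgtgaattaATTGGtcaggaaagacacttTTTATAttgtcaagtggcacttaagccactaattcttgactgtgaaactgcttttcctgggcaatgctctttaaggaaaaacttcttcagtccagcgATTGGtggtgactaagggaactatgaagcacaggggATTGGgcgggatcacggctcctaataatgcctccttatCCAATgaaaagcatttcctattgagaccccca

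The window holds 4 CCAAT matches, which begin 223, 106, 70 and 32 bases before the start site, and 1 TATAAA match at 203. Of the 32851 RefSeq windows of this length, 33.8% hold CCAAT at least once, 0.798% hold it 4 times or more, and 12.4% hold TATAAA. RefSeq windows were found for 7 of the 9 genes, without Enpp2 and Plpp1. A match of letters is a description and not a binding site.

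The phosphatases moved in different directions. Plpp1, which removes the phosphate of LPA and related lipids at the cell surface, was at 87.9, 103.6, 91.9 and 96.1 CPM at 37°C and 36.3, 32.9, 36.0 and 31.4 CPM at 39°C. The groups stood far apart, with a fold of -1.48 (SE 0.06, edgeR adjusted p = 7.25e-14). It was -1.49 in G1 cells (SE 0.07, adjusted p = 2.37e-13) and -1.03 in S and G2M cells (SE 0.07, adjusted p = 3.73e-12). Cells with a Plpp1 UMI after thinning made up 35.9% ± 1.86 at 37°C and 15.1% ± 1.34 at 39°C. Plpp1 (chromosome 13, 112800792 to 112867894, GRCm38, plus strand) shares 492 exonic bases with Mtrex on the other strand.

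Plpp2, a second phosphatase of the family, was also lower at 39°C. Its level was 95.9, 107.4, 108.5 and 115.4 CPM at 37°C and 69.8, 71.7, 72.4 and 73.4 CPM at 39°C, with no overlap. The fold was -0.57 (SE 0.05, edgeR adjusted p = 1.35e-08), -0.40 in G1 cells (adjusted p = 1.73e-06) and -0.58 in S and G2M cells (adjusted p = 4.37e-08).

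Plpp3, the family member known to be needed for vascular development, was higher at 39°C. Its level was 14.6, 14.0, 14.5 and 15.3 CPM at 37°C and 21.6, 21.6, 21.9 and 21.1 CPM at 39°C, with no overlap. The fold was 0.56 in all kept cells (SE 0.05, edgeR adjusted p = 1.95e-08) and 0.48 in S and G2M cells (SE 0.10, adjusted p = 0.00024). In G1 cells it was 0.12 (SE 0.07, adjusted p = 0.192), with 19.5 to 21.9 CPM at 37°C and 21.9 to 22.7 CPM at 39°C, whereas with phases scored by library it was 0.25 (adjusted p = 0.00552) and with all deposited cells 0.19 (adjusted p = 0.0298).

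The Plpp3 promoter is set beside that of Lpar4 because Plpp3 moved the other way between temperatures. Its window is on the plus strand at chr4:105157097-105157346 (GRCm38.p6, 250 bases before the RefSeq start site) and has no match to CCAAT or TATAAA, which says only that these letters are not in it. The window of Plpp2, which was lower at 39°C as Lpar4 was, has no match either, nor do those of Lpar2, Lpar3 and Lpar6. For Lpar1, 1 window has 1 CCAAT match.

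Plpp3: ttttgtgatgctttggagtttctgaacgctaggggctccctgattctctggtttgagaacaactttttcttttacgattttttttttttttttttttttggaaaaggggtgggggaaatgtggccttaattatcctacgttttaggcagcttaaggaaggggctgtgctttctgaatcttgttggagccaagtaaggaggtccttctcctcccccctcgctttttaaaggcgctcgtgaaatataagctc

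**Figure D4:**
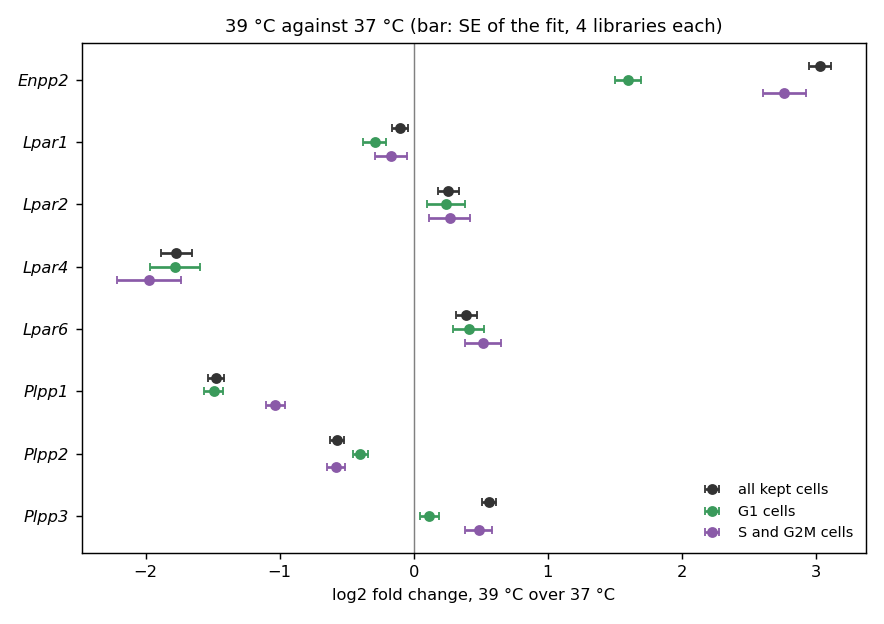
Log2 fold change of 8 genes between 39°C and 37°C in all kept cells, G1 cells and S and G2M cells, with the SE of the fit over 4 libraries each; Lpar3 is left out for its few UMIs. Enpp2 (3.03, 1.60 and 2.76) and Plpp3 (0.56, 0.12 and 0.48) have their smallest fold in G1, and Lpar4 lies between -1.97 and -1.77 in all.

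The other genes were then compared between phases within each temperature. At 37°C, 5 of the 8 tested genes passed, Enpp2 included (43.7% of all genes). Plpp3 was higher in G1 cells, by 0.65 (SE 0.08, edgeR adjusted p = 5.5e-14), with 19.5 to 21.9 CPM in G1 and 12.4 to 14.1 CPM in S and G2M cells. Plpp2 was lower in G1, by -0.23 (SE 0.04, adjusted p = 1.15e-08), and did not pass with phases scored by library (adjusted p = 0.0802). Lpar1 (0.27, adjusted p = 0.00468) and Plpp1 (-0.12, adjusted p = 0.00789) passed narrowly: without 37°C replicate 1 their adjusted p was 0.0574 and 0.0949, without 37°C replicate 3 it was 0.0838 and 0.273, and with DESeq2 0.111 and 0.21. Plpp1 was also lost with library totals as the only scaling (-0.06, adjusted p = 0.239).

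At 39°C, 3 of the 8 tested genes passed (40.5% of all genes). Besides Enpp2 these were Plpp1, lower in G1 by -0.58 (SE 0.07, edgeR adjusted p = 1.37e-16), and Plpp3, higher by 0.28 (SE 0.09, adjusted p = 0.00849). Plpp1 was at 29.7 to 35.1 CPM in G1 and at 42.2 to 53.5 CPM in S and G2M cells. The Plpp3 call was lost without 39°C replicate 2 (adjusted p = 0.0585) and with DESeq2 (adjusted p = 0.145).

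The phase difference itself differed between temperatures for 3 of the 7 tested genes other than Enpp2, against 16.3% of all genes tested. These were Plpp1 (-0.45, SE 0.08, edgeR adjusted p = 1.7e-07), Plpp2 (0.19, SE 0.06, adjusted p = 0.0203) and Plpp3 (-0.36, SE 0.13, adjusted p = 0.0354). The Plpp2 and Plpp3 calls were lost in 7 and 6 of 14 alternatives, and without 37°C replicate 2 neither passed (adjusted p = 0.0762 and 0.0836), which left 1 gene. Plpp2 was also lost without 39°C replicate 1 (0.0766) or 2 (0.0627), and with library totals as the only scaling (0.07, adjusted p = 0.52). Plpp3 was also lost without 37°C replicate 3 (0.103) or 39°C replicate 3 (0.126) or 4 (0.112).

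**Figure D5:**
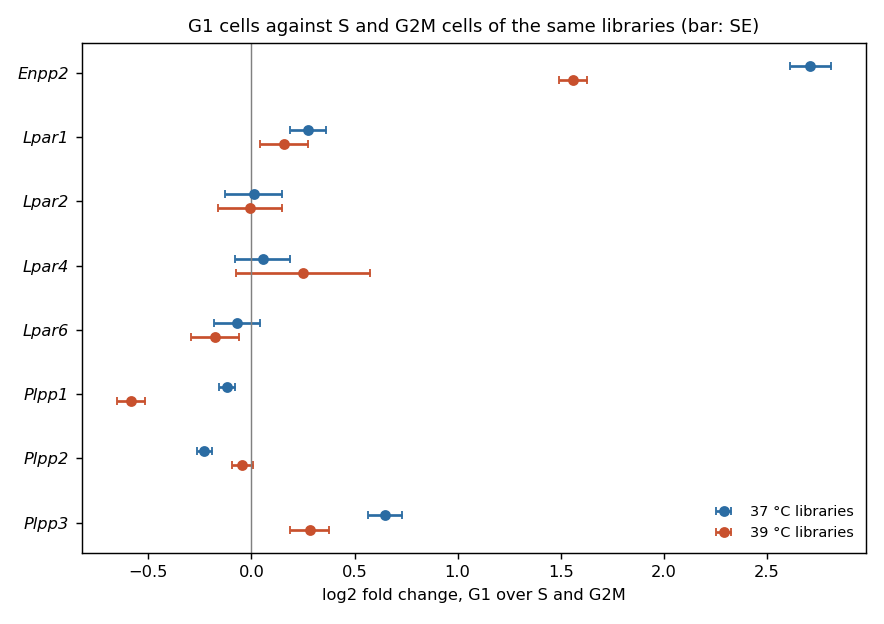
Log2 fold change of 8 genes between G1 cells and S and G2M cells of the same libraries at 37°C and at 39°C, with the SE of the fit. Enpp2 lies at 2.71 and 1.56, Plpp3 at 0.65 and 0.28 and Plpp1 at -0.12 and -0.58, while Lpar2 lies near 0.

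At 39°C, cells with and without an Enpp2 UMI were compared within libraries, after thinning to 5000 UMIs. The 4 libraries held 193, 421, 477 and 398 cells with Enpp2 and 756, 1963, 1838 and 2087 without. Of the cells with Enpp2, 92.2% to 95.2% were in G1, against 81.0% to 83.6% of those without. Of 7 tested genes only Plpp1 passed, higher in cells with Enpp2 by 0.28 (SE 0.10, edgeR adjusted p = 0.0247), against 19.2% of all genes. That call was lost when any single library was left out (adjusted p = 0.104, 0.0738, 0.0836 and 0.051 without replicates 1 to 4) and with DESeq2 (0.204). Lpar1 (0.34, adjusted p = 0.117) passed with all deposited cells (0.41, adjusted p = 0.0339), and Lpar2 (0.42, adjusted p = 0.158) without replicate 4 (0.68, adjusted p = 0.0338). Across single thinned cells of the 4 libraries, Pearson r between Enpp2 and any of the other genes lay between -0.045 and 0.063 (log counts), too weak in counts this sparse to be read.

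The genes whose pattern was most like that of Enpp2 are given as a description, with no test. Over the 8 libraries, which form 2 separate groups by temperature, Pearson r of log2 CPM among 8708 genes was highest for 5031425E22Rik (0.9996), Itm2b (0.9995), Zfand5 (0.9986), Axin2 (0.9981) and B3galnt2 (0.998), so such values mostly follow the temperatures. Of these, Axin2, an inhibitor and target of Wnt signalling, went from 8.17 to 21.1 CPM and Itm2b from 556 to 1126 CPM. Within the 39°C libraries, over thinned cells and among 3536 genes, the lowest of the 4 r values was highest for Id3 (0.214), Malat1 (0.187), Ahr (0.184), Hopx (0.18) and Nsg1 (0.18).

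Genes around LPA signalling were compared between the temperatures in all kept cells, from lists written with earlier results known. The counts stand beside 62.0% of all genes called, 31.5% higher and 30.5% lower. Of the ENPP relatives of autotaxin, 3 of 5 were tested. Enpp4 was lower at 39°C (11.4 to 8.66 CPM, log2 fold change -0.40, edgeR adjusted p = 9.65e-05) and the other 2 did not pass. Within G1 cells Enpp4 did not pass (-0.205, edgeR adjusted p = 0.164). All 6 tested lipid phosphatase relatives passed, 4 higher and 2 lower, with a median of 0.22 where that over all genes was 0.02. In G1 cells 3 of 5 tested passed, 2 higher and 1 lower, against 47.1% of all genes tested there. Plppr3 (1.68 to 5.00 CPM, 1.56) and Plppr2 (3.96 to 7.61 CPM, 0.96) rose, and Plpp7 fell from 0.12 to 0.0191 CPM (adjusted p = 0.0394), a level of few UMIs.

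Of 15 genes of LPA precursor and acylation pathways, 4 were higher, 3 lower and 8 did not pass, with a median of -0.06, so 7 of 15 passed against 62.0% of all genes. Lcat, which makes lysophosphatidylcholine while esterifying cholesterol, rose from 2.73 to 6.38 CPM (1.22, edgeR adjusted p = 3.72e-09), and Agpat4, which acylates LPA, from 60.6 to 121 CPM (1.00, adjusted p = 8.6e-13). Pla1a, a phospholipase that makes lysophosphatidylserine, fell from 1.58 to 0.416 CPM (-1.88, adjusted p = 2.51e-06).

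Of 10 tested genes of the related lipid sphingosine 1-phosphate, 4 were higher and 4 lower, with a median of 0.21. In G1 cells 2 of the 10 were higher and 2 lower, against 47.1% of all genes called there. The receptors S1pr1 (9.93 to 4.66 CPM, -1.10, edgeR adjusted p = 1.17e-08) and S1pr3 (2.05 to 1.17 CPM, -0.81) fell, and S1pr4 rose from 0.231 to 0.932 CPM (1.96).

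Of 9 genes known to respond to LPA or serum, 2 were higher, 4 lower and 3 did not pass, with a median of -0.59, so 6 of 9 passed, near the 62.0% of all genes. The contractile genes Myl9 (24.5 to 2.37 CPM, -3.34, edgeR adjusted p = 3.04e-16) and Acta2 (225 to 25.3 CPM, -3.14, adjusted p = 5.58e-15) fell, while Fos, an immediate early gene, rose from 9.90 to 24.1 CPM (1.28, adjusted p = 1.09e-07). Serum was lower in the 39°C cultures, and its part in these values was not tested.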

How the data were processed

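SN4741 cells were captured with the Chromium Single Cell 3' V3 kit. The submitters' processing notes name Cell Ranger 3.0.1 and mm10, and the authors deposited raw UMI counts per gene and cell, as whole numbers with no normalization. The study's limits on cells were applied (at most 15% mitochondrial UMIs, 200 to 6000 detected genes), and no doublet caller was run. At most 5 barcodes were shared between a pair of libraries.

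Counts were summed per library over all kept, G1 or S and G2M cells (Seurat 5.3.0, 42 S and 52 G2M genes), or over cells with and without an Enpp2 UMI. Every gene whose mean count over the sums was 1 or more was tested with edgeR 4.0.16 (R 4.3.3; TMM, glmQLFit, glmQLFTest; Benjamini-Hochberg). The design was temperature alone, or library plus phase within libraries. The SE of a fold was its size over the root of the F statistic. CPM use TMM-scaled totals, except plain totals for pooled, weighted and marker CPM and for phases scored on thinned cells. On data simulated from the dispersion of each fit, 200 of 200 changed genes were recovered in each fit (log2 change of 2), with 9 to 16 false calls. The changed genes were drawn from well-counted genes, so this says little of smaller folds or of genes with few UMIs. Counts were drawn independently from the dispersion trend of the same model, so error rates in the real data were not measured. Alternatives were RLE factors, totals only, filterByExpr, no filter, DESeq2 1.42.0, the replicate block, all deposited cells, thinning, other phase scoring and leaving out each library.

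Named genes were the 9 members, up to 3 genes of each list with the largest change among those called, and the 5 most like Enpp2 across libraries and across cells. Lpar5 and markers were named after their values were seen. The members, lists and this rule were chosen with earlier results of these data known. Positions come from GENCODE M21, matched by identifier for 9 of 9 genes, and promoters from RefSeq by symbol. The result of 1 gene list is not reported here.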

Additional observations from a re-analysis of the deposited data

Results flagged for a closer look

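The phase difference (G1 cells against S and G2M cells) differed between 39°C and 37°C in the edgeR fit for 3 genes: by -0.45 on the log2 scale for Plpp1, 0.19 for Plpp2 and -0.36 for Plpp3. Phases were assigned from scores, and G1 held 20.6% to 28.7% of cells at 37°C and 82.5% to 85.4% at 39°C, and the part of this shift in the differences was not tested.

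Single libraries stood apart from the other 3 of their group in 2 of 64 groups of values examined, where chance flags about 1 in 20. Enpp2 in S and G2M cells of 37°C replicate 1 was at 5.79 CPM, against 3.31 to 3.62 CPM in the other libraries, and leaving that library out gave a temperature difference of 2.97 against 2.76 (log2) in S and G2M cells. Lpar2 in all kept cells of 39°C replicate 4 was at 7.63 CPM, against 7.04 to 7.09 CPM in the others, and was above all 37°C libraries with and without it.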

How the results depend on the processing

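Between temperatures, 6, 5 and 5 of the genes other than Enpp2 passed in all kept, G1 and S and G2M cells, and every alternative gave 5 to 6. Of 761 single-gene values under an alternative, 694 kept their direction and their side of the threshold (for Enpp2 across temperatures, moved by under 2 SE), 32 lost a call, 8 gained one, 22 changed sign and 5, all of Enpp2, moved (2.77 in thinned cells; with phases scored by library 2.12 in G1 cells, 4.29 in S and G2M cells and -2.18 for the difference by temperature, which was -1.49 without 37°C replicate 1).

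The numbers that passed changed by over 1.5 times in these cases. Between phases at 37°C, 5 genes became 3 with DESeq2 and 3 to 5 when single libraries were left out. At 39°C, 3 genes became 5 with phases scored by library, and leaving out libraries gave 2 to 3. For the difference by temperature, 3 genes became 1 with all deposited cells, and 1 to 3 without single libraries. Of cells with and without Enpp2, 1 gene became 0 with DESeq2, 0 in cells thinned to 2000 UMIs, and 0 to 1 without single libraries, where the 1 gene was Lpar2 (without 39°C replicate 4). With all deposited cells 1 gene passed, Lpar1 in place of Plpp1. The cause was not tested. DESeq2 called 4240 against 6493 of all genes between phases at 37°C, 3880 against 5911 at 39°C and 1142 against 2580 by Enpp2, where thinning to 2000 UMIs gave 1009.

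The share of cells with Enpp2 was 18.7% at 39°C and 3.81% at 37°C when thinned to 5000 UMIs, 11.1% and 1.72% when thinned to 2000, and 26.1% and 6.16% without thinning, which follows from the depth kept. The Enpp2 ratio of 8.33 became 4.08 with the phase shares of 37°C.

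Changes of sign were of values that did not pass. Lpar2 between phases at 39°C became 0.008 with all deposited cells and 0.025 with phases scored by library. For the difference by temperature, Lpar2 became 0.009 without the low-count filter, and Lpar1 and Lpar4 became 0.003 and -0.036 with phases scored by library. By Enpp2, Lpar6 became -0.137 and Plpp3 -0.038 with all deposited cells. Without single libraries, values ran from -0.143 to 0.111 (Lpar2), -0.048 to 0.121 (Lpar4) and -0.177 to 0.023 (Lpar6) between phases at 37°C, from -0.143 to 0.064 (Lpar2) at 39°C, from -0.138 to 0.146 (Lpar2), -0.002 to 0.483 (Lpar4) and -0.207 to 0.021 (Lpar6) for the difference by temperature, and from -0.064 to 0.13 (Lpar6) by Enpp2.

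Scaling moved the median of all genes for the difference by temperature from 0.057 (TMM) to 0.003 (RLE) and -0.062 (totals only), and Plpp2's 0.19 to 0.14 and 0.07.

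Whether the replicate numbers pair the libraries was not settled. Deviations of same-numbered libraries correlated at -0.121, -0.117, -0.095 and 0.291 over 8358 genes, and those of libraries with different numbers at -0.32 to 0.31. With so few libraries such values cannot exclude pairing. With the replicate block the same numbers passed (6, 5 and 5), and over all genes 9617 against 9803, 6778 against 6933 and 6503 against 6545.

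Counts of 10 UMIs limit Lpar3, 25 UMIs limit Lpar4 in S and G2M cells at 39°C, and droplets holding pairs of cells were not removed beyond the limit on genes.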
